A study of Homo sapiens with 9 samples.

Results

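The human mitochondrial genome encodes 13 mRNAs, 2 rRNAs and 22 tRNAs, and these 37 genes were followed in HCC827 cells with and without depletion of CBX5 RNA. They were chosen as every row of the deposited count table whose symbol in GENCODE release 29 begins with MT-. They are 37 of the 57055 rows with an identifier in that release and of 60675 rows in all. HCC827 is an established human lung adenocarcinoma line, and CBX5 encodes the heterochromatin protein HP1 alpha. Per the labels, cells of this 1 line stably expressed a control hairpin (NS) or 1 of the CBX5 hairpins G1 and G7, and grew in DMEM with serum and antibiotics. Each of the 3 groups had 3 libraries, called replicates 1 to 3, and all were made from RNA selected on oligo-dT beads with a protocol that marks strand. The labels do not say whether the lines are clones or pools, or whether replicates come from separate transductions. The p-values then measure the spread between these libraries. The series' title ties loss of CBX5 to EGFR inhibitor resistance. No drug is named in the labels of these 9 libraries.

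Both strands of the mitochondrial genome are transcribed into long precursors by the polymerase POLRMT with the factors TFAM and TFB2M. The precursors are cut on either side of the tRNAs that lie between the other genes, so the level of each RNA afterwards depends on its own stability. MTPAP then adds poly-A tails to most mRNAs, and the tail completes the stop codon of several of them. The rRNAs carry short tails, and mature tRNAs end in CCA without a tail, so selection on oligo-dT is known to sample both poorly. Counts of MT-RNR1, MT-RNR2 and the tRNA genes are therefore read here as what was recovered, which need not follow their amount in the cell.

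Incomplete stop codons are shown first because they are the reason a poly-A tail matters for these mRNAs. Of the 13 annotated mRNAs, 6 stop before their last codon is complete. MT-ND1 ends in 2 bases of a stop codon and the other 5 in 1 base. The last 15 bases of these 6 RNAs follow, from GENCODE release 29 on GRCh38, 5′ to 3′, with the incomplete codon in capitals.
MT-ND1 chrM:4248-4262 (forward strand): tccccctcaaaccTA
MT-ND2 chrM:5497-5511 (forward strand): tactaataatcttaT
MT-CO3 chrM:9976-9990 (forward strand): attgatgagggtctT
MT-ND3 chrM:10390-10404 (forward strand): tagactgaaccgaaT
MT-ND4 chrM:12123-12137 (forward strand): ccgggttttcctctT
MT-CYB chrM:15873-15887 (forward strand): tactcaaatgggccT

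Neighbouring reading frames also share bases, and this bears on how reads are assigned to them. MT-ATP8 and MT-ATP6 share 46 bases and are carried on 1 mRNA, as MT-ND4L and MT-ND4 are, with 7 shared bases. A counter that skips reads lying in 2 genes lowers both members of such a pair, so their counts are uncertain. The shared stretch of MT-ATP8 and MT-ATP6 is printed with the start codon of MT-ATP6 in capitals. The start of MT-ND4 is printed with its overlap with MT-ND4L in capitals.
MT-ATP6 chrM:8527-8572 (forward strand): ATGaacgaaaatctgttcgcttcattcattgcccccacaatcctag
MT-ND4 chrM:10760-10780 (forward strand): ATGCTAAaactaatcgtccca

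Library totals ran from 12701561 to 22372353 counts. The targeted RNA, CBX5, had a log2 change of -1.38 in G1 cells (adjusted p = 4.02e-15 in the edgeR test described next) and of -0.86 in G7 cells (adjusted p = 5.09e-11). All 7 epithelial markers were present, at means of 323 to 5105 CPM, where CPM is counts scaled to library size after TMM normalization. Of 10 markers of other lineages, 8 averaged under 1 CPM and CD68 and ACTA2 had 0 counts in all 9 libraries. PECAM1, at a mean of 67.5 CPM, and COL1A1, at 14.2 CPM, were the exceptions. G7 replicate 3 stood apart from its partners. The chi-square per degree of freedom over the tested genes was 24.9 and 19.3 against G7 replicates 1 and 2, which differed from each other by 1.504. Mitochondrially encoded genes gave 60.4% and 59.2% of those chi-square sums. Over nuclear genes alone the values were 6.97 and 5.55, against 1.45 between replicates 1 and 2. Pairs within NS and G1 gave 2.78 to 9.22 over all tested genes.

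Mitochondrially encoded RNA took between 13.4% and 19.8% of the counts, and the groups overlapped. In NS replicates 1 to 3 its share was 15.04, 17.7 and 15.6% of all counts. With G1 the shares were 14.9, 13.4 and 16.6%. With G7 they were 14.4, 14.6 and 19.8%. The third G7 library held the highest share of the 9 and G1 replicate 2 the lowest, while G7 replicates 1 and 2 lay below every NS library. The 95% Wilson intervals of these shares were 0.02999 to 0.0394 percentage points wide, so counting error was small beside the spread between libraries. Group means were 16.1 ± 1.42% in NS, 14.9 ± 1.595% with G1 and 16.3 ± 3.07% with G7 (SD, n = 3 each).

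An exact two-sided permutation test of the group means gave p = 0.4 for G1 against NS, 1 for G7 against NS and 0.7 for G1 against G7. With 3 libraries a group this test cannot go below 0.1. Over the 24 comparisons of 8 such quantities, the adjusted values of these 3 were 0.873, 1 and 0.933. The share was thus not distinguishable between hairpins in this design. The 13 mRNAs supplied most of it, at 10.7% to 15.8% of all counts. The rRNAs supplied 2.62% to 4.05% and the 22 tRNA genes 0.00814% to 0.0206%.

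**Figure D1:**
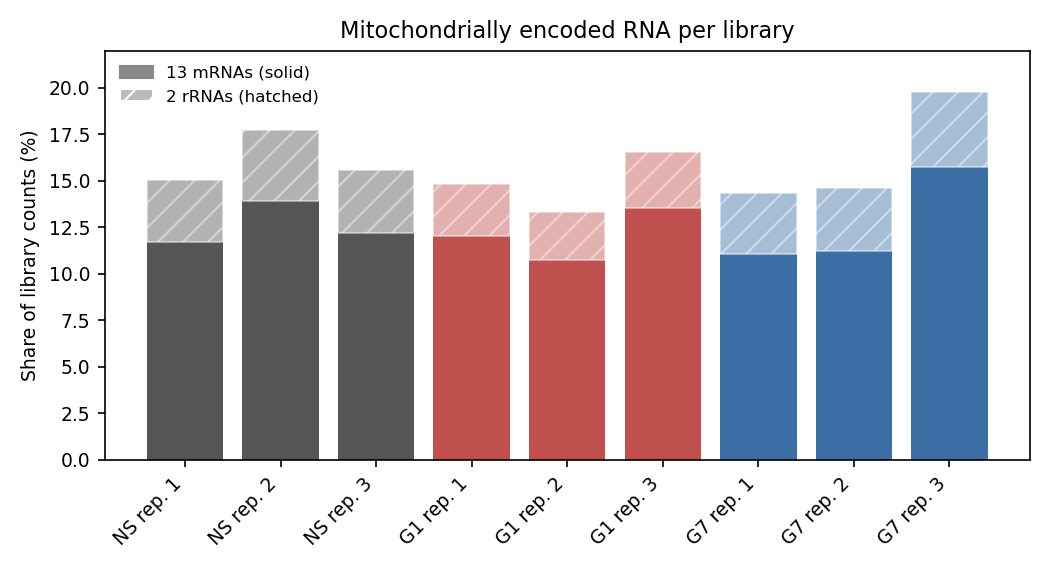
Share of each library's counts (y axis, %) in the 13 mitochondrial mRNAs (solid) and 2 rRNAs (hatched), for the 9 libraries (x axis; NS grey, G1 red, G7 blue). G7 replicate 3 reaches 19.8% in all, and its partners lie at 14.4% and 14.6%.

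The order of the mRNA levels per length is given for the control cells, in CPM per kilobase (mean ± SD, n = 3). Tails are added to most but not all of these mRNAs, so the order is of what was recovered on oligo-dT beads. MT-ND4, a subunit of complex I, stood highest at 18919 ± 2469, within the spread of MT-CO3 of cytochrome oxidase at 18445 ± 1908. MT-CO2 and MT-CO1, the catalytic core of the same oxidase, followed at 14882 ± 1694 and 13262 ± 1144. A middle group held both ATP synthase subunits, MT-ATP6 at 10706 ± 1323 and MT-ATP8 at 9882 ± 1174. MT-ND1 at 9872 ± 1133 and MT-ND4L at 9324 ± 1329.9 lay beside them, all 4 within their spread. MT-ND2 had 8034 ± 1049, MT-CYB of complex III 7912 ± 791 and MT-ND3 6561 ± 696. MT-ND5 and MT-ND6 were the lowest mRNAs, at 4225 ± 479.9 and 4156 ± 523. The first lies on the heavy-strand transcript with 11 other mRNAs, and the second is the only mRNA of the light strand. MT-ND4L and MT-ND4 share 1 mRNA but differed in counts per length by more than their SDs.

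Neither hairpin changed a mitochondrial mRNA beyond the spread between libraries in the main fit of all 9 libraries. The test was edgeR's quasi-likelihood test on the counts of 13264 genes with Benjamini-Hochberg adjustment over all of them, and a gene was called at an adjusted p under 0.05. With G1, 0 of 13 mRNAs were called, where 59.1% of all genes tested were called. With G7 the count was also 0 of 13, beside 22.7% of all genes. Between G1 and G7 it was 0 of 13, beside 44.9% of all genes. None of the 39 comparisons had an unadjusted p under 0.05, and DESeq2 called 0 as well. The fitted log2 changes lay between -0.12 and 0.15 with G1, with a median of 0.024 beside -0.011 over all genes. With G7 they lay between -0.13 and 0.15, with a median of 0.032 beside 0.0093. Standard errors were 0.11 to 0.15, and the 95% intervals over all 13 mRNAs reached from -0.41 to 0.46 with G1 and from -0.42 to 0.44 with G7. Changes within those limits could not be told from none in that fit. The result depended on the filter on low counts. Without it, edgeR on the same 9 libraries called 5 mRNAs with G1, 4 with G7 and 2 between hairpins. Over all genes it then called 7992, 3093 and 6035 of 24096. The log2 change of MT-ND4 with G7 was 0.14 in both fits, while its SE was 0.14 with the filter and 0.039 without. The calls without the filter thus rest on a smaller spread than the main fit gave these mRNAs. In bulk RNA, less of an RNA per cell and fewer cells that hold it cannot be told apart.

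Within each hairpin group the libraries differed by more than the group means did. Complex I subunit MT-ND1 had 8518, 10632 and 9161 CPM in NS, 9925, 8510.4 and 11496 CPM with G1 and 7723, 7834 and 12407 CPM with G7. MT-ND2, of the same complex, had 7549, 9612 and 7952 CPM in NS, 7609.9, 6595 and 8878 with G1 and 6353, 6549.7 and 10080.5 with G7. In both genes the third G7 library was the highest of the 9 and its partners were the lowest. MT-ND4 had 23692, 29968 and 24552 CPM in NS, 27884, 23841 and 32389.7 with G1 and 23818, 24494 and 37991 with G7. MT-ND6 had 2029, 2499 and 2017 CPM in NS, 2387, 2046 and 2807 with G1 and 1803, 1847 and 3041 with G7. The light-strand mRNA MT-ND6 and the heavy-strand MT-ND4 thus had the same library as their highest, and the groups overlapped for each.

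MT-CYB, the core subunit of complex III, had 8250.3, 10017 and 8817 CPM in NS, 8965, 7639 and 10264 with G1 and 7541, 7595 and 11266 with G7. MT-CO1, which holds the site of oxygen reduction, had 19136, 22456 and 19757 CPM in NS, 20889, 18728 and 23608 with G1 and 19671, 19689 and 27366 with G7. MT-ATP8, a small subunit of the ATP synthase, had 2031, 2295 and 1810.1 CPM in NS, 1789, 2009 and 2051 with G1 and 1488, 1674 and 2697 with G7. In MT-ATP8 and MT-ND4L, unlike the other 11 mRNAs, G1 replicate 2 was not the lowest G1 library. The fitted change of MT-ND6 was 0.15 ± 0.15 (SE) with G1 and 0.03 ± 0.15 with G7. For MT-ND2 the changes were -0.12 ± 0.14 and -0.13 ± 0.14.

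The other mRNAs followed the same order of libraries within G7. MT-CO2 had 9345, 11502 and 9690.2 CPM in NS, 10007, 8766 and 11968 with G1 and 9067, 9199.6 and 14250.2 with G7. MT-CO3 had 13374, 16167 and 13841 CPM in NS, 14499.8, 12972 and 16289 with G1 and 12863, 13123 and 18422 with G7. In both of these oxidase genes G7 replicate 3 was the highest library, and G1 replicate 2 lay below all NS libraries. MT-ATP6, part of the proton channel of the ATP synthase, had 6693, 8327 and 6853 CPM in NS, 7396, 6375 and 8472 with G1 and 6291, 6406 and 9505 with G7. MT-ND5, a large proton-pumping subunit of complex I, had 7000.2, 8641 and 7323 CPM in NS, 8087, 7013 and 9356 with G1 and 6674, 6792 and 10459 with G7. G7 replicates 1 and 2 lay below all NS libraries for both. The short complex I mRNAs MT-ND3 and MT-ND4L ran from 1899 CPM (G7 replicate 1) to 2873 CPM (G7 replicate 3) and from 2494 CPM (NS replicate 1) to 3813 CPM (G7 replicate 3).

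**Figure D2:**
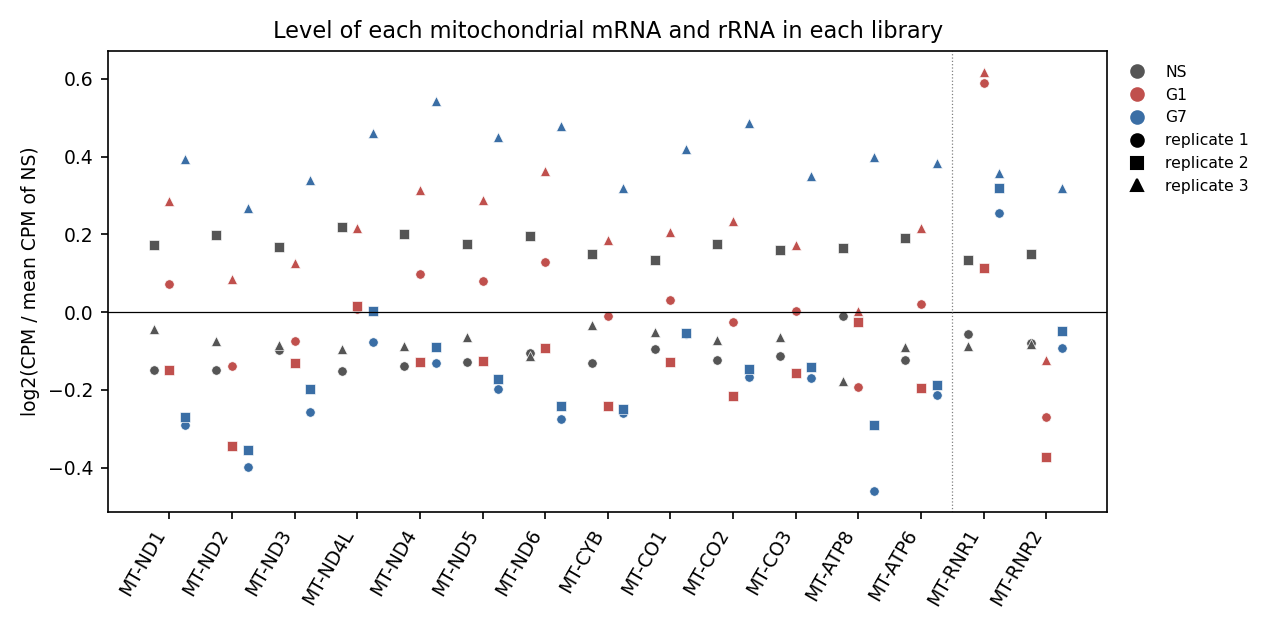
Level of each of the 13 mRNAs and 2 rRNAs (x axis) in each library, as the log2 of its CPM over the mean CPM of NS (y axis). Colour marks the hairpin and shape the replicate, and the blue triangles of G7 replicate 3 lie above the other G7 libraries for every mRNA.

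G7 replicate 3 had more of every mitochondrial mRNA than the mean of G7 replicates 1 and 2. The log2 ratio was 0.77 for MT-ATP8, 0.74 for MT-ND6 and 0.67 for MT-ND1. At the other end, MT-CO1 had 0.48, MT-ND4L 0.50 and MT-CO3 0.50, and the median of the 13 was 0.64. The rRNAs followed less: the ratio was 0.39 for MT-RNR2 and 0.07 for MT-RNR1. When CPM was computed over nuclear counts alone, the median of the mRNAs was 0.63, so the excess was as large without mitochondrial reads in the total. For comparison, the other 8 libraries against their own partners gave medians from -0.37 (G7 replicate 1) to 0.31 (G1 replicate 3). The G7 partners' own ratios include replicate 3 in the mean they are set against. This is a comparison of 1 library with 2 and carries no test.

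Nuclear genes of G7 replicate 3 also departed from its partners, most of them by less than the mitochondrial mRNAs. The chi-square per degree of freedom over nuclear genes, 6.97 and 5.55 against its partners, was above that of every other pair within a group (1.45 to 3.41). Over 6868 nuclear genes with a mean of at least 20 CPM the median log2 ratio was -0.0043, and the 5th and 95th percentiles were -0.23 and 0.21. Only 11 of them exceeded 0.48, the lowest ratio among the mitochondrial mRNAs. The largest was that of Z95331.1, a sense-overlapping transcript, at 1.10. NDUFV3, a nuclear-encoded subunit of complex I, had 0.96, with 479, 589 and 1041 CPM in G7 replicates 1 to 3. WDR66 had 0.95, the transcription factor SALL4 0.75, NPIPB4 0.65 and the ferritin heavy chain FTH1 0.63. Those 6 were lower in G1 replicate 2, the library with the lowest mitochondrial share, than in its partners, from -0.65 (Z95331.1) to -0.25 (FTH1). The share of all genes lower in that library was not counted. NS did not show 1 order: replicate 2, with the highest NS share, had the highest NS level of Z95331.1, NPIPB4 and FTH1. The same library had the lowest NS level of NDUFV3 and SALL4, and WDR66 lay between its partners. The lowest ratio in G7 replicate 3 was -1.74, for AC010970.1, annotated as a processed pseudogene, further from 0 than any ratio above. The next were -0.58 for the proton pump subunit ATP6V0B, -0.52 for P4HTM and -0.52 for the aminopeptidase RNPEP. ANAPC11, of the anaphase-promoting complex, had -0.51 and HLA-B -0.50.

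Without G7 replicate 3, 6 of 13 mitochondrial mRNAs were called lower with G7 than in NS. That library was singled out for its high mitochondrial share, the quantity compared here, and 2 G7 libraries are left, so these values describe the remaining libraries. All 13 log2 changes were then negative, from -0.37 to -0.034, and the 6 calls stand beside 10.1% of all genes tested called lower. MT-ND2 fell by 0.37 ± 0.09 (adjusted p = 0.00228 in edgeR's test) and MT-ATP8 by 0.37 ± 0.07 (adjusted p = 3.27e-04). MT-ND1 fell by 0.28, MT-ND6 by 0.26, MT-CYB by 0.25 and MT-ND3 by 0.23. The cytochrome oxidase mRNAs did not pass, with MT-CO1 at -0.05, MT-CO2 at -0.15 and MT-CO3 at -0.15. Nor did MT-ATP6 at -0.20 and, of complex I, MT-ND5 at -0.18, MT-ND4 at -0.11 and MT-ND4L at -0.034. For 10 of the 13 mRNAs both remaining G7 libraries lay below all 3 NS libraries. Between G1 and G7 without that library, 8 of 13 were called higher with G1, beside 22.9% of all genes, led by MT-ND6 at 0.40 and MT-ND1 at 0.36. G1 against NS gave 0 of 13 calls in this fit too, beside 61.4% of all genes. With 2 libraries left, no further check of G7 by leaving a library out was made.

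**Figure D3:**
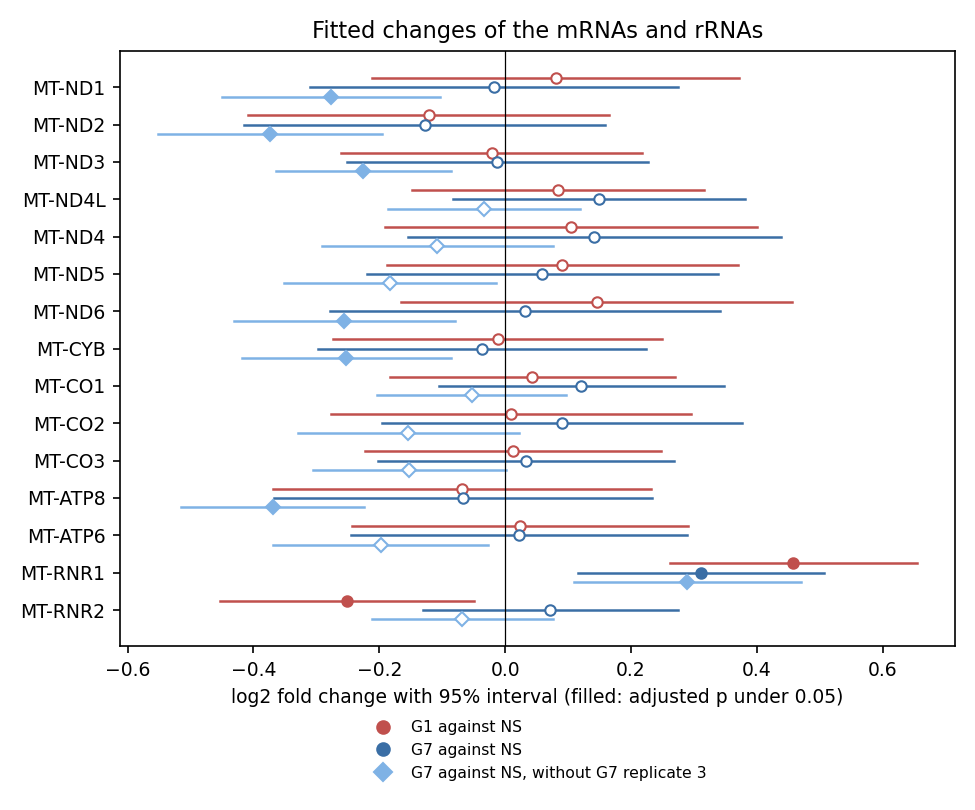
Fitted log2 fold change (x axis) with its 95% interval for each mRNA and rRNA (y axis), for G1 against NS (red), G7 against NS (dark blue) and G7 against NS without G7 replicate 3 (light blue diamonds). Filled symbols passed an adjusted p of 0.05, which only rRNAs did with all 9 libraries and 6 mRNAs did without that library.

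The make-up of the mRNA pool does not depend on how libraries are scaled, and here MT-ND2 and MT-CYB took less of it with both hairpins. Pool shares are the counts of 1 mRNA as a percentage of the 13 together. They sum to 100%, so a lower share of one gene is tied to higher shares of others. MT-ND2 took 6.73, 6.97 and 6.83% in NS, 6.12, 6.03 and 6.197% with G1 and 5.89, 5.96 and 6.14% with G7. Every hairpin library, G7 replicate 3 included, lay below every NS library. MT-CYB took 7.35, 7.26 and 7.57% in NS, 7.21, 6.98 and 7.16% with G1 and 6.99, 6.91 and 6.86% with G7, again with no overlap. MT-ND4 went the other way, with 21.1, 21.7 and 21.1% in NS, 22.4, 21.8 and 22.6% with G1 and 22.1, 22.3 and 23.1% with G7, and its lowest G1 share was just above its highest NS share.

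A pair of complex I genes at the far end of the genome set the hairpins apart. MT-ND5 took 6.24, 6.27 and 6.29% in NS, 6.502, 6.41 and 6.53% with G1 and 6.19, 6.18 and 6.37% with G7. MT-ND6 took 1.81, 1.81 and 1.73%, 1.92, 1.87 and 1.96% and 1.67, 1.68 and 1.85% in the same order. All G1 libraries were above all NS and G7 libraries for both. MT-ND5 ends at chrM:14148 and MT-ND6 starts at chrM:14149 on the opposite strand. The strand setting of the counting is not given, so reads running past MT-ND5 could count for MT-ND6. The shares of the pair are therefore not read as separate results. The share of MT-ND1 was lower in all G7 libraries (7.16, 7.12 and 7.56%) than in NS (7.59, 7.71 and 7.86%) or G1 (7.98, 7.78 and 8.02%). In all, 5 of 13 shares did not overlap between G1 and NS, where 37.1% of all genes tested did not overlap when set relative to the mitochondrial mRNA total and 64.1% on TMM-scaled CPM. For G7 and NS it was 7 of 13, beside 7.29% and 35.3%, with MT-CO2 and MT-ND4 higher and MT-ND1, MT-ND2, MT-ND3, MT-ATP6 and MT-CYB lower. For G1 and G7 it was 4 of 13, beside 14.4% and 53.6%. Within G7 the mRNA total itself ran from 11.1% to 15.8% of counts, a spread that enters the ratios of other genes to it and cancels in the shares of its own members, so the counts are not read against these percentages. The share of MT-ATP8 was highest in G1 replicate 2, at 1.84%, and NS replicate 1, at 1.81%, and was 1.38% to 1.66% in the other 7 libraries. No test was made of these shares.

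The rRNAs and the tRNA gene MT-TS1 were the mitochondrial genes called by the edgeR test described above with all 9 libraries. MT-RNR1 (chrM:648-1601), the rRNA of the small ribosomal subunit, had 1718, 1961 and 1683 CPM in NS, 2691, 1933 and 2744 with G1 and 2133, 2229 and 2292 with G7. It rose by 0.46 ± 0.09 (SE) on the log2 scale with G1 (adjusted p = 3.67e-04 in edgeR's test, where 30.4% of all genes were called higher). With G7 it rose by 0.31 ± 0.09 (adjusted p = 0.0217, beside 13.1% called higher). All G7 libraries lay above all NS libraries (35.3% of all genes had groups that did not overlap), while G1 replicate 2 lay just below NS replicate 2. The G7 call ended without NS replicate 1 (0.28, adjusted p = 0.0859) or NS replicate 3 (0.27, 0.105). It also ended with library totals in place of TMM (0.27, 0.0529) and in DESeq2 (0.31, 0.1096). Without G7 replicate 3 the G7 change was 0.29 (adjusted p = 0.0167). The G1 call held in all 18 other fits, at 0.36 to 0.61. Between G1 and G7 the difference of 0.15 was not called (adjusted p = 0.212), but without G1 replicate 2 it was (0.29, 0.00117).

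MT-RNR2 (chrM:1671-3229), the rRNA of the large subunit, fell with G1 and was not called with G7. It had 30293, 35499.7 and 30272 CPM in NS, 26544, 24739.5 and 29418 with G1 and 30024, 30988 and 39962 with G7. All G1 libraries lay below all other libraries, where 64.1% of genes did not overlap between G1 and NS and 53.6% between G1 and G7 in either direction. The change with G1 was -0.25 ± 0.10 (adjusted p = 0.0321 in edgeR's test, beside 28.7% of genes called lower), and with G7 it was 0.07 ± 0.10 (adjusted p = 0.648). The G1 call ended without NS replicate 2 (-0.17, 0.176), G1 replicate 1 (-0.24, 0.0898) or G1 replicate 2 (-0.19, 0.131), and in DESeq2 (-0.25, 0.129). G1 was lower than G7 by a log2 difference of -0.32 ± 0.10 (adjusted p = 0.0107, beside 21.6% called lower). That difference was -0.18 (adjusted p = 0.0381) without G7 replicate 3. It was not called without G1 replicate 1 (-0.30, 0.05102) or G1 replicate 2 (-0.26, 0.05303), or in DESeq2 (-0.32, 0.0653).

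Counts of MT-RNR1 per 100 counts of MT-RNR2 need no scaling between libraries. They were 5.67, 5.52 and 5.56 in NS, 10.1, 7.81 and 9.33 with G1 and 7.11, 7.19 and 5.74 with G7. The 3 groups did not overlap on this ratio, and G7 replicate 3 lay close to NS while its partners did not. The means were 5.59 ± 0.0771, 9.09 ± 1.18 and 6.68 ± 0.817 (SD, n = 3 each). Each of the 3 comparisons gave p = 0.1 in the exact two-sided permutation test, the smallest it can give, and 0.3 after adjustment over 24 comparisons. MT-RNR2 per 100 counts of mitochondrial mRNA was 26.99, 25.7 and 25.98 in NS, 21.3, 22.6 and 20.5 with G1 and 27.8, 28.2 and 24.3 with G7. Here G1 lay below both other groups (p = 0.1 each, exact permutation, adjusted 0.3) and G7 overlapped NS (p = 0.8, adjusted 0.96). MT-RNR1 per 100 counts of mitochondrial mRNA was 1.53, 1.42 and 1.44 in NS, 2.16, 1.77 and 1.92 with G1 and 1.98, 2.03 and 1.396 with G7. All G1 libraries lay above NS (p = 0.1, exact permutation, adjusted 0.3), while G7 overlapped NS (p = 0.4, adjusted 0.873) and G7 replicate 3 was the lowest of the 9.

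**Figure D4:**
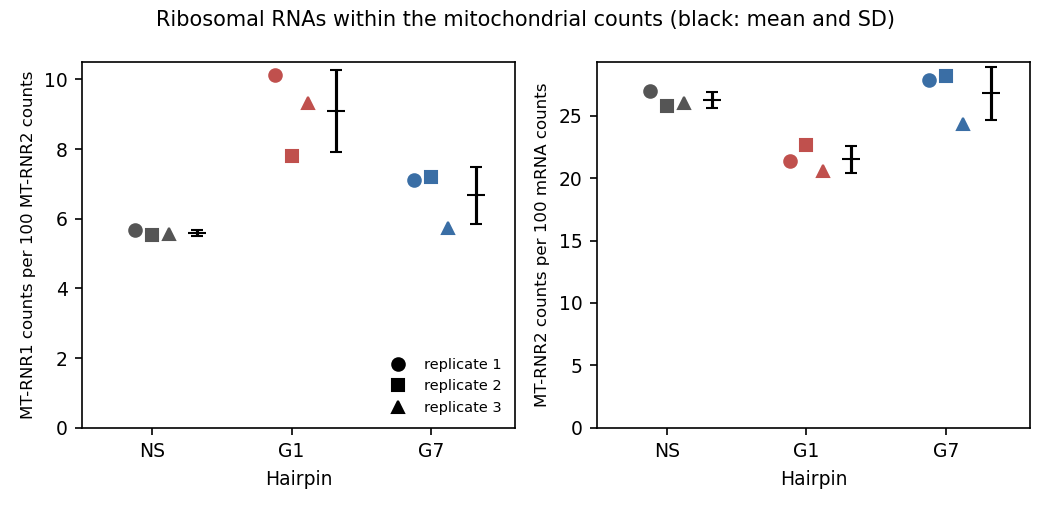
MT-RNR1 counts per 100 MT-RNR2 counts (left) and MT-RNR2 counts per 100 mitochondrial mRNA counts (right) for each library by hairpin, with mean and SD in black and y axes from 0. On the left the NS libraries lie at 5.52 to 5.67 and the G1 libraries at 7.81 to 10.1, with G7 replicate 3 at 5.74 near NS.

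Most of the nuclear RNAs listed as lacking a poly-A tail were at or near 0. Of 20 such nuclear RNAs (small nuclear, nucleolar and replication-dependent histone RNAs and the like), 13 had 0 counts in all 9 libraries and 18 averaged under 1 CPM. Their summed level was 36.7 to 40.4 CPM in NS, 16.8 to 18.8 with G1 and 29.8 to 30.9 with G7, mostly from the histone gene HIST1H2AC. HIST1H2AC alone had 30.98, 29.3 and 28.3 CPM in NS, 9.66, 10.9 and 8.86 with G1 and 20.2, 22.4 and 19.9 with G7, with no overlap between groups. HIST1H2BK overlapped between NS (8.54, 6.94 and 8.87 CPM) and G7 (8.25, 7.89 and 9.55 CPM). HIST1H1E was higher in the G1 libraries (0.652, 0.896 and 0.7701 CPM) than in NS (0.378, 0.206 and 0.298 CPM). AC010970.1, the pseudogene with the lowest ratio in G7 replicate 3, had 26.7, 20.1 and 20.1 CPM in NS, 62.2, 86.2 and 74.2 with G1 and 50.5, 55.1 and 15.8 with G7. Its G1 libraries and G7 replicates 1 and 2 lay above NS and G7 replicate 3 lay below. AC010970.1 was picked for its low ratio in G7 replicate 3, so its level in that library is not read against the rRNA ratios. The summed level of the epithelial markers was 10719 to 11634 CPM in NS, 14673 to 14925 with G1 and 12584 to 13186 with G7. The part of these RNAs in the rRNA result was not tested. Copies of mitochondrial genes in the nuclear genome took few counts. Of 18 listed, 13 were at 0 in all 9 libraries, among them MTND1P23, MTND2P28 and MTATP6P1. MTRNR2L1, a near copy of MT-RNR2, averaged 12.5 CPM and MTRNR2L12 1.72 CPM. Reads that fit such a copy and MT-RNR2 alike may be skipped or split, so the count of each is uncertain.

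Counts in the tRNA genes were low and split by strand. The 8 genes transcribed from the light strand, which run in reverse orientation in the reference, together held 82.1 to 203 CPM in the 9 libraries. The 14 transcribed from the heavy strand held 2.13 to 6.69 CPM. The light-strand tRNA genes lie opposite the long heavy-strand precursor, and the strand setting of the counting is not given in the sources used here, so reads of that precursor and of these tRNAs cannot be told apart. Of the 22 genes, 9 averaged at least 1 CPM, 7 of them on the light strand, and 11 passed the filter on low counts. MT-TA, the alanine tRNA, was the highest at a mean of 52.5 CPM, followed by MT-TN for asparagine at 35.0 CPM and MT-TS1 for a serine at 19.2 CPM. MT-TY, MT-TQ, MT-TE and MT-TC averaged 8.94, 6.0, 5.34 and 3.98 CPM, and on the heavy strand MT-TV and MT-TL1 averaged 1.28 and 1.03 CPM. The other 13 averaged 0.0059 to 0.78 CPM, where 3 counts are 0.134 CPM in the deepest library and 0.236 CPM in the shallowest. The 3 leading tRNAs are printed with their anticodons in capitals.
MT-TA chrM:5587-5655 (reverse strand): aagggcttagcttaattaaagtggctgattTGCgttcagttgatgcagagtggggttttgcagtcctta
MT-TN chrM:5657-5729 (reverse strand): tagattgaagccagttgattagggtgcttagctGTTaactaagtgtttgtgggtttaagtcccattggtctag
MT-TS1 chrM:7446-7514 (reverse strand): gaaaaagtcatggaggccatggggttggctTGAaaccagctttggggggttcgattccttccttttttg

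MT-TS1 rose with G1 and was the only tRNA gene called by that test with all 9 libraries. It had 16.4, 6.800 and 6.19 CPM in NS, 15.3, 49.95 and 17.8 with G1 and 25.1, 29.3 and 5.92 with G7. The groups overlapped, since NS replicate 1 lay above G1 replicate 1 and G7 replicate 3 was the lowest library of all. The change was 1.56 ± 0.49 on the log2 scale with G1 (adjusted p = 0.0109 in edgeR's test) and 1.05 ± 0.51 with G7 (adjusted p = 0.153). With G1 this was 1 of 11 tested tRNA genes called, beside 59.1% of all genes tested (30.4% called higher). With G7 it was 0 of 11, beside 22.7%, and between G1 and G7 0 of 11, beside 44.9%. The G1 call ended without G1 replicate 2 (0.80, 0.147) or NS replicate 3 (1.30, 0.0852) and in DESeq2 (1.501, 0.0796). Without G7 replicate 3, the G7 change was 1.51 and was called (adjusted p = 0.00186). MT-TS1 begins 1 base after MT-CO1 ends, on the opposite strand, and the MT-CO1 mRNA is known to extend across it. Reads of that tail and of the tRNA cannot be told apart either.

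Of the other tRNA genes, MT-TC, MT-TY, MT-TA, MT-TE, MT-TV and MT-TL1 were called in some of the alternatives. With the replicate number as a block MT-TC was called higher with G1 than in NS (0.42, adjusted p = 0.0406). Without the filter on low counts MT-TC and MT-TY were called higher with G1 (0.43 and 0.31), MT-TA with G7 (0.18) and MT-TE with G1 against G7 (0.40). Without G1 replicate 2, MT-TV and MT-TL1 were called lower with G1 than in NS, at -1.46 and -1.11. Without G1 replicate 1, MT-TC and MT-TY were called higher, at 0.59 and 0.56, and MT-TC was also called without G7 replicate 3 (0.41). Over all genes, G1 against NS gave 7909 of 13264 calls with the block and 7992 of 24096 without the filter. Leaving out G1 replicate 2, G1 replicate 1 or G7 replicate 3 gave 7159 of 13464, 7095 of 13458 and 8260 of 13455. Without the filter, G7 against NS gave 3093 calls and G1 against G7 6035. G1 replicate 2 held 203 CPM of light-strand tRNA genes, the most of all, and G1 replicate 1 held the least, at 82.1 CPM. In NS the sums were 115, 128 and 113 CPM and with G7 they were 107, 130.4 and 161 CPM. An exact two-sided permutation test gave p = 0.7 for G1 and 0.6 for G7 against NS. MT-TA had 41.6, 53.5 and 52.2 CPM in NS, 30.5, 63.97 and 64.8 with G1 and 37.3, 45.3 and 83.6 with G7. MT-TQ, for glutamine, had 4.01, 9.14 and 4.22, 2.55, 8.54 and 5.78 and 4.12, 5.59 and 10.1 CPM. Relative to its partners, G7 replicate 3 had more MT-TA (1.02) and MT-TQ (1.05) and less MT-TS1 (-2.20), on the log2 scale. G1 replicate 2, lowest in mitochondrial mRNA, was above its partners for all 9 tRNAs with a mean of at least 1 CPM, from 0.43 to 1.76.

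**Figure D5:**
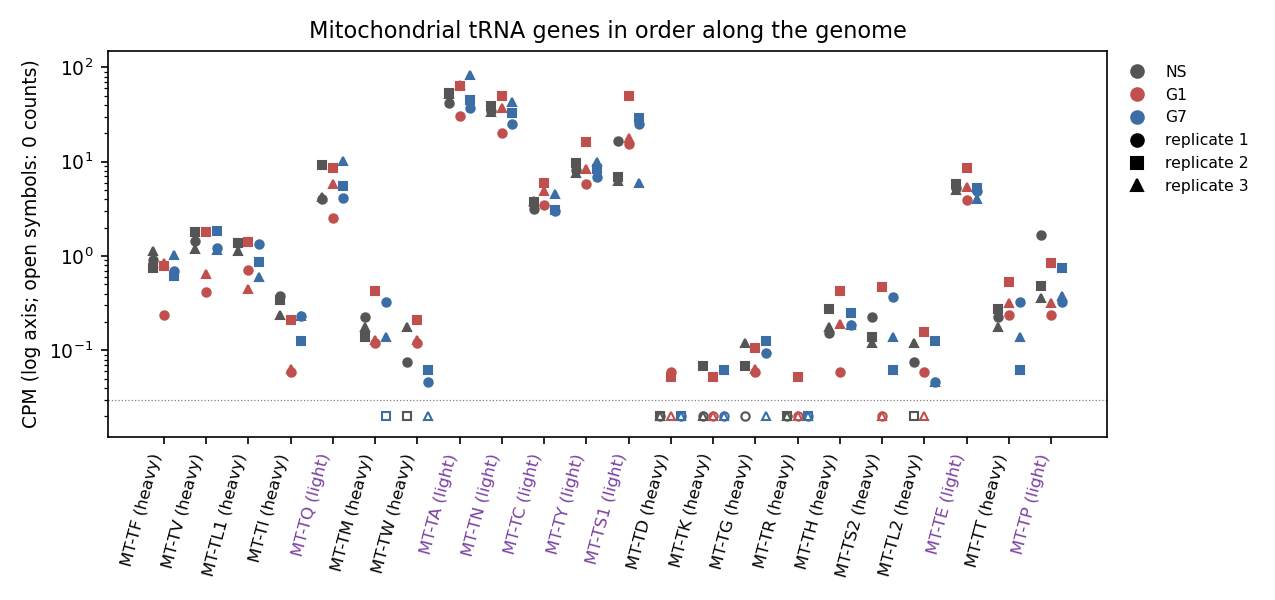
CPM (y axis, log scale) of the 22 mitochondrial tRNA genes in each library, in their order along the genome (x axis), with light-strand genes in purple type. Open symbols below the dotted line mark 0 counts. Light-strand genes other than MT-TP lie above 2 CPM in all libraries, and most heavy-strand genes lie below 1 CPM.

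Nuclear genes that copy, read and process mitochondrial DNA and RNA were taken from 6 lists, of which 56 of 62 members were tested. Of the 6 others, MGME1, KIAA0391, FASTKD3, FASTKD5 and TRMT5 are listed at 0 in all 9 libraries. Cells generally express these genes, so a 0 in this table is not read as absence of the RNA. That holds here and for the markers, the RNAs listed as lacking a poly-A tail and the copies above. With G1, 29 were called higher and 5 lower, which is 60.7% of the 56 beside 59.1% of all genes tested. With G7, 8 were higher and 2 lower, which is 17.9% beside 22.7%. Between G1 and G7, 23 were higher with G1 and 2 lower (44.6% beside 44.9%). Counted in either direction, the calls were thus near the background in all 3 comparisons. Their directions were not evenly split as over all genes. With G1, 29 listed genes were higher and 5 lower, where 30.4% of all genes were called higher and 28.7% lower. Between G1 and G7, 2 listed genes were lower with G1 and 23 higher, where 21.6% of all genes were called lower. The split of the listed genes by direction was not tested. The median log2 change was 0.19 with G1 and 0.083 with G7, beside -0.011 and 0.0093 over all genes. The G7 count of 10 became 3 without G7 replicate 2, 5 without NS replicate 1, 16 without G7 replicate 3 and 4 with library totals. Over all genes those fits called 2365 of 13447, 2260 of 13394, 3321 of 13455 and 2506 of 13264.

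Of 10 transcription genes, 4 rose and 2 fell with G1, and 1 rose with G7. Calls in either direction were 60% and 10%, beside 59.1% and 22.7% of all genes tested. TFAM, which packs and transcribes mitochondrial DNA, rose by 0.42 with G1 (adjusted p = 1.63e-06 in edgeR's test) and 0.19 with G7 (adjusted p = 0.0118). Its G7 call ended with library totals (0.119), without NS replicate 3 (0.05802) and without G7 replicate 2 (adjusted p = 0.0664). POLRMT, the polymerase, rose by 0.20 with G1 and had 0.13 with G7 (adjusted p = 0.227). Its G1 call ended in 5 of 18 alternatives, at 0.09 with library totals, 0.11 with upper quartile scaling, and 0.19, 0.16 and 0.16 without NS replicate 1, NS replicate 2 or G1 replicate 1. MTERF3 rose by 0.56 with G1 and MTERF2 had -0.72. Of 11 replication and nucleoid genes, 6 rose and 1 fell with G1, and 2 rose and 1 fell with G7. Either way that is 63.6% and 27.3%, beside the same shares of all genes. The nucleoid protein ATAD3A rose by 0.75, the single-strand binding protein SSBP1 by 0.60 and the catalytic polymerase subunit POLG by 0.40 with G1. Its accessory subunit POLG2 had -0.44 with G1 and -0.36 with G7, both called lower. Its G7 call ended without NS replicate 1 (-0.29, adjusted p = 0.0654) or NS replicate 3 (-0.30, 0.0658). The G7 calls of ATAD3A and POLG ended in 8 and 5 of 18 alternatives.

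Of 10 processing genes, 7 rose and 2 fell with G1, and 2 rose and 1 fell with G7. Calls in either direction were 90% and 30%, beside 59.1% and 22.7% of all genes tested. Over all genes, 30.4% were called higher and 28.7% lower with G1, and 13.1% higher with G7. The RNase P subunits TRMT10C and HSD17B10 rose by 0.50 and 0.57 with G1, while the third subunit, KIAA0391, is the one listed at 0, and the RNA granule protein GRSF1 by 0.34. PTCD2 was the gene with the largest fall in this list, at -0.35. Of 5 genes for RNA stability and tailing, 3 rose with G1 (60%) and 1 with G7 (20%). SLIRP rose by 0.81 with G1 (adjusted p = 2.13e-10 in edgeR's test) and 0.31 with G7 (adjusted p = 2.85e-04), while its partner LRPPRC, with which it binds mitochondrial mRNAs, had 0.0031 with G1 and -0.04 with G7. PDE12, which removes poly-A tails, rose by 0.62 with G1. Of 3 decay genes, 2 rose with G1 (66.7%), among them PNPT1 at 0.40, and 0 were called with G7. Of 18 genes of RNA modification, 7 rose with G1 (38.9%) and 2 with G7 (11.1%). MRM2, a methyltransferase of MT-RNR2, rose by 0.55 with G1 and 0.22 with G7, and NSUN2 by 0.51 and 0.14. The G7 call of MRM2 ended in 8 of 18 alternatives: with library totals (0.18) and upper quartile scaling (0.19), in the fit of 2 groups, and without NS replicate 1, NS replicate 3 (0.14, adjusted p = 0.169), G1 replicate 1, G7 replicate 1 or G7 replicate 2. That of NSUN2 ended with library totals (adjusted p = 0.131) and without G7 replicate 2 (0.0547).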

How the data were processed

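Poly-A-selected RNA of 9 HCC827 libraries was measured, 3 each for NS, G1 and G7. The deposited values are unnormalized counts of reads in each gene, which the authors made with TopHat2 2.1.0 and HTSeq 0.6.0 on GRCh38 per the submitters' processing notes. Not given in the sources used here are the annotation release, the strand setting and the handling of multi-mapped reads. The tests used edgeR 4.0.16 (R 4.3.3): filterByExpr by group (13264 genes, 26 of them mitochondrially encoded), TMM, a mean per group over all 9 libraries, and glmQLFTest with Benjamini-Hochberg adjustment over all genes tested. Shares of counts were compared by exact two-sided permutation tests. Intervals and the level that 3 counts stand for cover counting error only. All within-group pairs of libraries differed by more than sampling noise and were counted singly. Alternatives were other scalings, nuclear counts alone, DESeq2 1.42.0, no filter, 2 groups only, a replicate block and leaving out each library. One further alternative, without G7 replicate 3 and with nuclear scaling, was chosen after seeing the data, as were all alternatives for the nuclear lists.

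Named were all MT- genes (tRNAs by value from a mean of 1 CPM), nuclear list members past an absolute log2 change of 0.3 when called, TFAM, POLRMT, LRPPRC and SLIRP, and the 6 nuclear genes each way that set G7 replicate 3 most apart. The nuclear members printed are examples from that rule. Members and lists were chosen with earlier results of these data known. Sequences and positions come from GENCODE release 29 on GRCh38, in which all 37 genes had a transcript.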

Additional observations from a re-analysis of the deposited data

Results flagged for a closer look

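MT-RNR2 differed between the hairpins: the fitted change against NS was -0.25 with G1 and 0.07 with G7, and the test of the difference itself gave -0.32 (log2, 95% interval -0.53 to -0.12, adjusted p = 0.0107 in edgeR's test). All 3 G1 libraries lay below all 3 G7 libraries. Without G7 replicate 3 the G7 change was -0.07 and the difference -0.18 (adjusted p = 0.0381). Over its 18 alternatives the difference ran from -0.40 to -0.17, and 15 of the 18 passed. DESeq2 (adjusted p = 0.0653) and edgeR without G1 replicate 1 (0.0510) or G1 replicate 2 (0.0530) did not.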

How the results depend on the processing

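The count of called mitochondrial mRNAs stayed at 0 in each comparison under RLE, upper quartile and nuclear scaling, library totals, DESeq2, the fit of 2 groups and the replicate block. Without the filter on low counts it was 5 for G1 (5 higher), 4 for G7 (3 higher, 1 lower) and 2 between them. Over all genes that fit called 7992, 3093 and 6035 of 24096 in the same order. Its SE for MT-ND4 with G7 was 0.039, beside 0.14 in the main fit. Leaving out 1 library at a time gave 0 to 6 calls for G7 and 0 to 8 between hairpins, and 0 for G1. All those calls came from leaving out G7 replicate 3. Without it and with nuclear scaling the counts were 6 for G7 and 9 between hairpins, beside 3283 and 5870 of 13455 genes. The signs that turned with a call were those of MT-ND6 with G7, which ran from -0.26 to 0.17 when 1 library was left out and was -0.27 without G7 replicate 3 and with nuclear scaling, and 3 differences between hairpins. Those were MT-ATP8 (-0.16 to 0.30, and 0.31 with both), MT-ND3 (-0.12 to 0.21, and 0.21 with both) and MT-ND4 (0.22 with both). The called nuclear list members with G7 were 3 to 16 when 1 library was left out and 4 with library totals. The fits with 3 and 16 called 2365 of 13447 and 3321 of 13455 genes, and library totals 2506 of 13264. Without rRNA and tRNA the mean shares were 12.6% in NS, 12.1% with G1 and 12.7% with G7, by construction lower than with them. In the other fits, 177 of 1401 values of mitochondrial genes and 17 of 1458 of nuclear genes changed sign while called in neither fit. The median mRNA change with G1 was 0.024 and turned to -0.062 under upper quartile scaling and -0.078 with library totals, where the median of all genes was -0.098 and -0.11. Whether the replicate numbers pair the samples is not settled by these values. Same-numbered libraries correlated, in their deviations from group means, at -0.076 to 0.20, with 2 of 9 pairs above 0.1. Libraries with different numbers correlated at -0.19 to 0.19. With the replicate block, MT-RNR1 changed by 0.45 with G1 and 0.31 with G7 and MT-RNR2 by -0.26 with G1. The block added a call only for MT-TC among mitochondrial genes, higher with G1 than in NS (0.42) and than with G7 (0.41). Depth limits the 13 tRNA genes that averaged under 1 CPM. The causes of these changes were not tested.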
